A study of Mus musculus with 6 samples.

Results

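The collagen and laminin genes of the array were taken by symbol. A probe set entered where the platform annotation gave it a single symbol of the form of Col4a1, or Lama, Lamb or Lamc with a number. The rule found 101 probe sets for 52 genes, out of 18193 genes measured, and where a gene had several, the probe set brightest on average across the 6 arrays stands for it. By class these were 11 fibrillar collagens, 6 basement membrane collagens, 10 laminin chains and 25 other collagens. The values are log2 expression levels made by RMA, so a difference of 1 is a 2-fold change, and levels of different probe sets are not on a common scale.

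The cells came from the mouse embryonic stem (ES) cell line ER71 A17C, of background strain 129P2/Ola, which carries a doxycycline-inducible Etv2 cassette in both groups (ER71 A2Lox.cre). They were grown in hanging drops into embryoid bodies, the aggregates in which ES cells form early germ layers, and on day 3.5 the cells carrying Flk1 were sorted. Doxycycline at 0.5 microg/ml ran from day 3 for 12 hours in the 3 induced samples, and 3 samples labelled control were untreated by the design text, although the treatment label reads the same on all 6. Etv2 is an ETS transcription factor of the blood and endothelial lineages, and Flk1, the protein of Kdr, is the VEGF receptor of the mesoderm they arise from. A single line was used, and without doxycycline-treated cells lacking the cassette the effect of the drug cannot be told apart from that of Etv2. Whether replicates came from separate cultures is not stated beyond the experiment having been done in triplicate, so the p-values rest on a spread that may be technical. In such bulk samples fewer cells of a type and less RNA per cell cannot be told apart.

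Collagens are triple helices of alpha chains. Fibrillar collagens form the fibres of connective tissue, and type IV collagens form the sheet of the basement membrane. Laminins are cross-shaped trimers of an alpha, a beta and a gamma chain that polymerise beneath epithelia and endothelia. In the early embryo laminin and type IV collagen make the first basement membranes, and mesoderm forms as cells leave the epithelial epiblast across such a layer. Fibrillar collagens become abundant later, in mesenchyme and skeletal tissue.

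Etv2 stood at 9.92, 8.59 and 10.71 in controls 1, 2 and 3 and at 13.27, 13.28 and 13.36 in the induced samples. The log2 fold change of 3.56 ± 0.44 (SE) separated the groups fully, yet limma's adjusted p over all genes was 0.388. Kdr stood at 10.02, 8.40 and 10.97 in the controls and at 9.56, 9.36 and 10.52 in the induced samples. The induced Kdr levels thus lay inside the control range, and control 2 was the lowest. Induced 2 stood apart from the other arrays at the dim end, with a lower quartile of 6.06 against 5.96 to 6.003. Detection calls were not used here, so a range of dim signal was taken from the 38 olfactory receptor genes on the array. Their 95th percentile was 7.68, and 19 of the 52 matrix genes lay above it, against 57.4% of all genes. The other 33 are called dim here, which does not show that they were not expressed.

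No collagen or laminin gene passed the threshold between induced and control samples. Of the 52 tested with limma, 0 had an adjusted p under 0.05, where 0.0055% of all genes did. Etv2, with an induced mean of 13.30 against 9.74, did not pass in this fit either. At an unadjusted p under 0.05 there were 2 of 52, Col14a1 and Col8a2, against 1.71% of all genes. With the replicate number as a block there were 0 past the adjusted threshold, beside 0.011% of all genes, and 2 at an unadjusted p under 0.05, Col14a1 and Col19a1, beside 3.6%. With the Kdr level as a further term, added after the data were seen, the count was again 0 of 52, beside 0.0275%, and in that fit Etv2 did pass (limma adjusted p = 0.00028). The 95% interval of the log2 fold change lay within 0.5 of 0 for 45 of the 52 genes and within 1 for 50. The exceptions to the wider bound were Col13a1, whose interval reached 1.10, and Col19a1, whose interval reached 1.40.

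**Figure D1:**
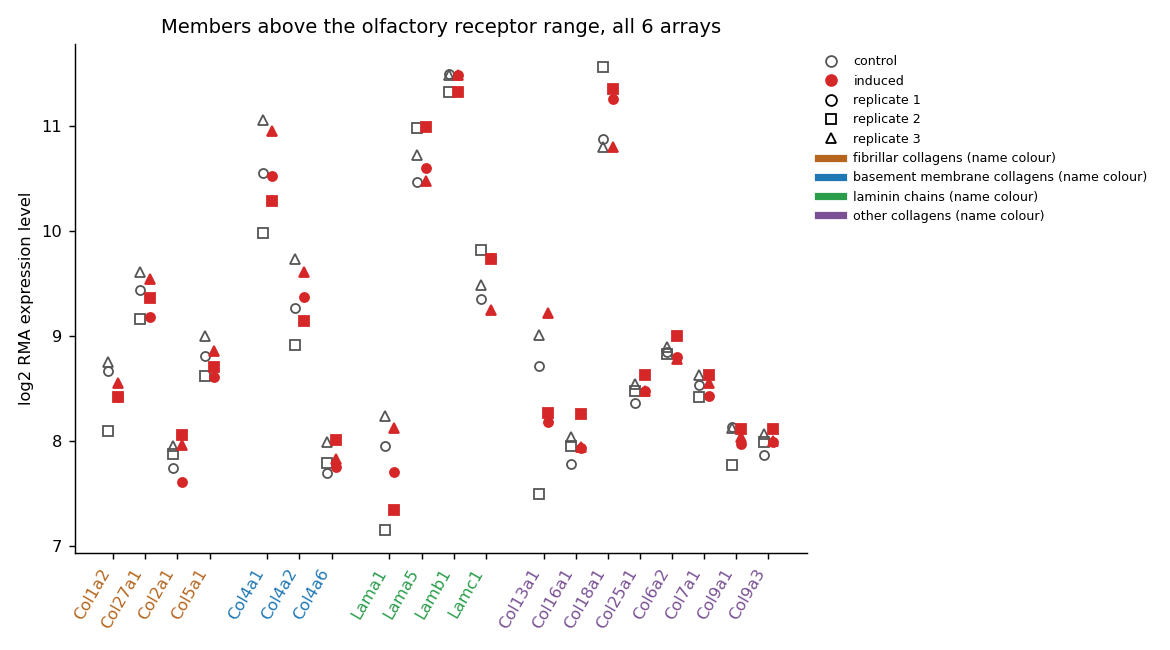
Log2 RMA level (vertical axis) of the 19 collagen and laminin genes above the olfactory receptor range, by class, on each of 6 arrays; open grey symbols are controls, filled red symbols induced samples, and the shape gives the replicate number. Control and induced symbols overlap for every gene shown, while Col4a1, Lama1 and Col13a1 are spread widely within both groups.

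The type IV collagens of the basement membrane overlapped between the groups. Col4a1 and Col4a2 encode the alpha chains of the ubiquitous type IV network. Col4a1 stood at 10.55, 9.98 and 11.05 in controls 1, 2 and 3 and at 10.52, 10.29 and 10.95 in the induced samples. Its log2 fold change was 0.06 ± 0.27 (SE), with an interval from -0.56 to 0.68. Col4a2 stood at 9.27, 8.91 and 9.73 in the controls and at 9.37, 9.14 and 9.61 in the induced samples, a difference of 0.07 ± 0.21. In both genes the lowest array was control 2 and the highest control 3, so the induced samples lay between controls. Col4a6, which encodes a chain of more restricted basement membranes, had 7.69, 7.79 and 7.99 against 7.75, 8.01 and 7.83. Col4a3, a chain of kidney and lung basement membranes, stood at 7.22, 7.04 and 7.23 in controls and 7.14, 7.40 and 7.17 in induced samples, highest on induced 2. It was dim, as were Col4a4 and Col4a5, with differences from -0.01 to 0.09.

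Among laminin chains, 4 of 10 lay above the dim range. On its reported probe set Lamb1, the beta chain of the early embryonic laminins, had almost the same level in every sample. It stood at 11.49, 11.32 and 11.49 in controls and 11.48, 11.32 and 11.49 in induced samples. The log2 fold change was -0.01 ± 0.09 (SE), with an interval from -0.21 to 0.20. Other Lamb1 probe sets had differences of 0.004, 0.14 and -0.25, the last of them dim, all with overlapping groups. Lamc1, the common gamma chain, stood at 9.35, 9.82 and 9.48 in controls and 9.74, 9.73 and 9.24 in induced samples. Lama5, an alpha chain of many embryonic epithelia, stood at 10.47, 10.98 and 10.72 in controls and 10.59, 10.99 and 10.48 in induced samples. Both pairs of groups overlapped fully, with differences of 0.02 ± 0.17 for Lamc1 and -0.04 ± 0.17 for Lama5.

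Lama1, the alpha chain of the first embryonic basement membranes, was the most variable laminin gene. It stood at 7.95, 7.15 and 8.24 in controls and 7.70, 7.34 and 8.12 in induced samples, a difference of -0.06 ± 0.29 (SE). Lama3, an epithelial alpha chain in the dim range, was the laminin gene whose groups did not overlap, at 6.78, 6.76 and 6.68 against 6.79, 7.04 and 6.83. Its difference was 0.14 ± 0.09, with the highest value on induced 2. Lamb2, Lamb3, Lamc3, Lama2 and Lama4 had differences from -0.03 to 0.15 and overlapping groups.

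The 11 fibrillar collagens had differences from -0.08 for Col5a1 to 0.03 for Col5a2. Col1a2, an alpha chain of type I collagen, stood at 8.67, 8.10 and 8.75 in controls and 8.42, 8.42 and 8.55 in induced samples. Its partner chain gene Col1a1 was dim, at 6.29 to 6.37 over all 6 arrays, and so was Col3a1, at 4.50 to 4.88. Col27a1, a fibrillar collagen of cartilage, stood at 9.44, 9.16 and 9.61 in controls and 9.18, 9.36 and 9.54 in induced samples. Col5a1, whose chain starts collagen fibrils, stood at 8.81, 8.61 and 8.996 against 8.61, 8.71 and 8.86. Col2a1, the main cartilage collagen, stood at 7.75, 7.87 and 7.95 against 7.61, 8.06 and 7.96. Col11a1, a minor cartilage chain in the dim range, stood at 7.81, 7.44 and 7.21 in controls and 7.57, 7.41 and 7.27 in induced samples. Col5a3, a type V chain and also dim, stood at 6.65, 6.72 and 7.01 in controls and 6.67, 6.78 and 6.76 in induced samples. For all 11 the 95% interval stayed within 0.5 of 0. Groups did not overlap for 0 of the 11, beside 6.79% of all genes.

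Among the 25 other collagens were the largest differences of the family, none of them past the threshold. Col14a1 encodes a fibril-associated collagen and stood at 7.08, 6.87 and 7.41 in controls and 7.36, 7.37 and 7.68 in induced samples. Each induced sample was above the control of its number, but induced 1 and induced 2 lay below control 3. The log2 fold change was 0.35 ± 0.15 (SE), with limma's unadjusted p at 0.049, or 0.0049 with the replicate block, and an adjusted p of 0.9995 and 0.992. The other Col14a1 probe sets had differences of 0.15 and 0.04, and all 3 were dim. Col19a1, another fibril-associated collagen and also dim, stood at 7.12, 5.60 and 7.05 against 7.01, 6.49 and 7.56. Its difference of 0.43 ± 0.42 turned to -0.06 when control 2, the lowest array, was left out.

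Further genes of this class with small differences were dim. Col12a1, a fibril-associated collagen, stood at 7.38, 7.27 and 7.25 in controls and 7.34, 7.67 and 7.50 in induced samples, a difference of 0.20 ± 0.10 (SE) with overlapping groups. Its other probe sets, also dim, had differences of -0.08, 0.01 and 0.05. In the probe set with -0.08 the induced samples lay wholly below the controls. Col17a1, a transmembrane collagen of epithelial adhesions, stood at 5.30, 5.12 and 5.10 in controls and 5.14, 5.54 and 5.30 in induced samples, and these overlapped too. Col8a2 encodes a short-chain network collagen and stood at 6.20, 6.25 and 6.26 against 6.43, 6.59 and 6.31, a difference of 0.21 ± 0.09. Col6a5, a type VI chain, stood at 4.95, 4.84 and 4.93 against 5.02, 5.30 and 5.02, a difference of 0.21 ± 0.10. With Lama3 these make the 3 of 52 genes whose induced samples lay wholly above the controls, beside 2.88% of all genes, and 0 of 52 lay wholly below, beside 3.91%. All 3 are dim and highest on induced 2. Among the reported probe sets of the 52 genes, the largest fall in value was that of Col26a1. It stood at 6.40, 6.11 and 6.31 in controls and 6.11, 6.20 and 6.18 in induced samples. The difference was -0.11 ± 0.09, with overlapping groups.

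**Figure D2:**
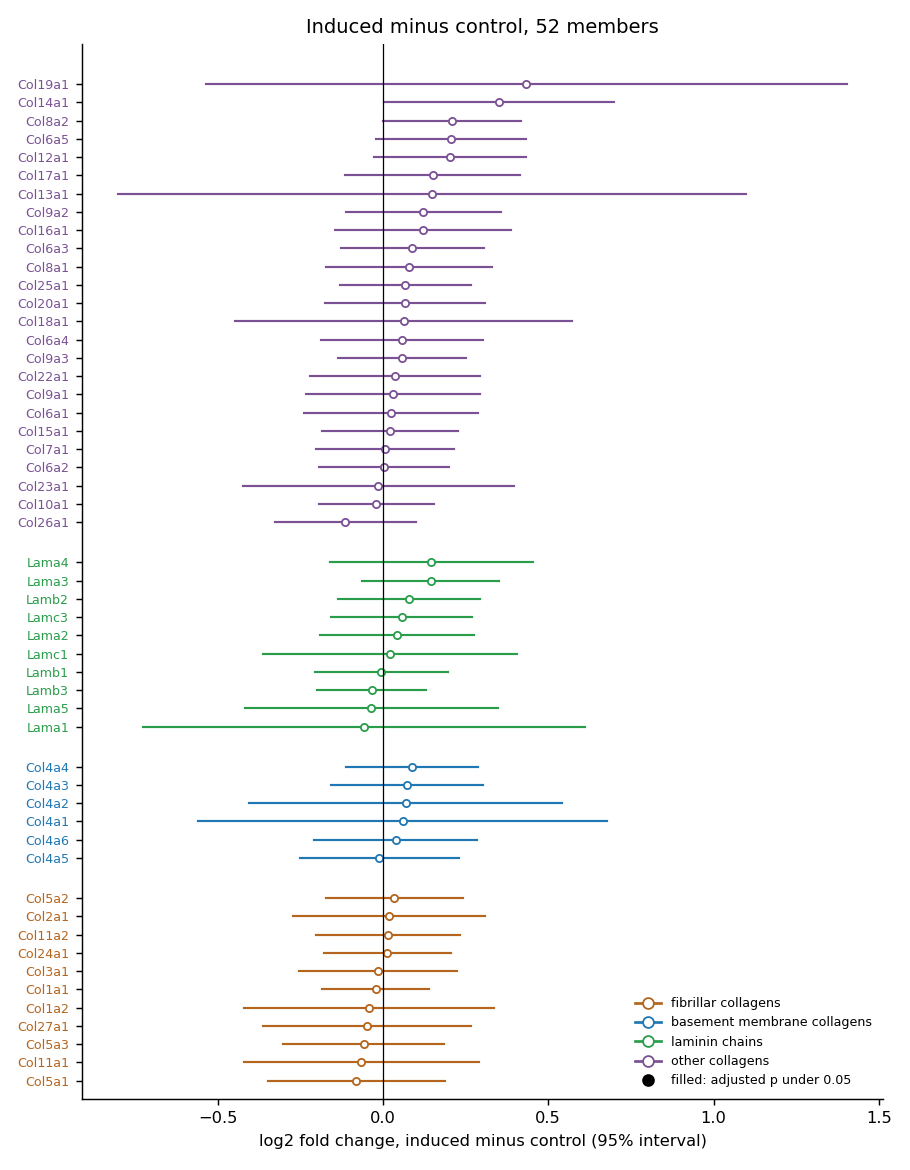
Log2 fold change, induced minus control (horizontal axis), of the 52 genes by class, with points for the limma estimate and bars for the 95% interval; a filled point would mark an adjusted p under 0.05. No point is filled, and the widest bars belong to Col19a1, which reaches 1.40, and Col13a1, which reaches 1.10.

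On their reported probe sets, other members above the dim range overlapped between the groups. Col18a1, whose protein is a basement membrane proteoglycan and the source of endostatin, stood at 10.87, 11.56 and 10.79 in controls and 11.26, 11.35 and 10.80 in induced samples, a difference of 0.06 ± 0.22 (SE). A second Col18a1 probe set, also above the dim range, had 0.29 with overlapping groups. Col13a1, a transmembrane collagen of cell adhesions, stood at 8.71, 7.49 and 9.01 against 8.18, 8.27 and 9.21, a difference of 0.15 with the wide interval given above. Its spread within the controls was the second largest of the family after Col19a1, with an SD of 0.81. Col6a2, a chain of beaded filaments, was at 8.78 to 9.001 over all arrays, Col7a1, the anchoring fibril collagen, at 8.42 to 8.63, and Col25a1, a transmembrane collagen, at 8.36 to 8.63. Col9a1, Col9a3 and Col16a1, all fibril-associated, had differences of 0.03, 0.06 and 0.12. A second Col9a1 probe set, also above the dim range, ran the other way with -0.35 and overlapping groups. It stood at 8.55, 7.55 and 8.10 in controls and 7.84, 7.40 and 7.90 in induced samples.

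The median log2 fold change was -0.02 for fibrillar collagens, 0.06 for basement membrane collagens, 0.03 for laminin chains and 0.07 for other collagens, beside 0.0026 for all genes. Positive differences were found in 37 of the 52 genes and 22 of the 25 other collagens, beside 51.1% of all genes. Without induced 2 the counts were 23 of 52 and 12 of 25, beside 44.6% of all genes, and the median of the other collagens was -0.0004. Over all 6 arrays, 24 of the 33 dim members were positive, beside 65.8% of dim genes. Above the dim range it was 13 of 19, beside 40.2%. Without induced 2 these were 15 of 33, beside 42.9%, and 8 of 19, beside 45.8%. The 33 dim members averaged 6.69 on induced 2 and 6.45 to 6.60 on the other 5 arrays, and all dim genes averaged 6.32 and 6.18 to 6.24.

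Within the groups, several matrix genes followed the Kdr level of the sorted sample. Col13a1, Col4a1, Lama1, Col19a1, Col4a2, Col23a1 and Col1a2 rose with Kdr, and Col18a1 fell with it. The limma fit behind this covered all genes and was added after seeing the data; its terms were the group and the array's Kdr level. It called 8 of the 52 genes, 7 rising and 1 falling, beside 3.77% of all genes in either direction, 1.77% rising and 2% falling. By class the calls were 2 of 6 basement membrane collagens, 1 of 10 laminin chains, 1 of 11 fibrillar collagens and 4 of 25 other collagens. The sort selected on the Flk1 protein, so these slopes describe cells already chosen for that protein. Kdr itself had a log2 fold change of 0.02 ± 0.59 (SE), with a 95% interval from -1.36 to 1.39.

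The slopes are log2 units of the gene per log2 unit of Kdr. Col13a1 had 0.66 ± 0.08 (SE, limma adjusted p = 0.0023), Col4a1 0.43 ± 0.05 (0.0029) and Lama1 0.46 ± 0.06 (0.0040). Col19a1, in the dim range, had 0.64 ± 0.11 (0.0125) and Col4a2 0.32 ± 0.05 (0.0135). Col23a1, a transmembrane collagen also in the dim range, had 0.26 ± 0.06 (0.0369), and Col1a2 0.24 ± 0.05 (0.0460). In the opposite direction Col18a1 had -0.34 ± 0.06 (0.0132). Col4a1 and Lama1 ranked the 6 arrays exactly as Kdr did, and Col18a1 in exactly the reverse order.

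**Figure D3:**
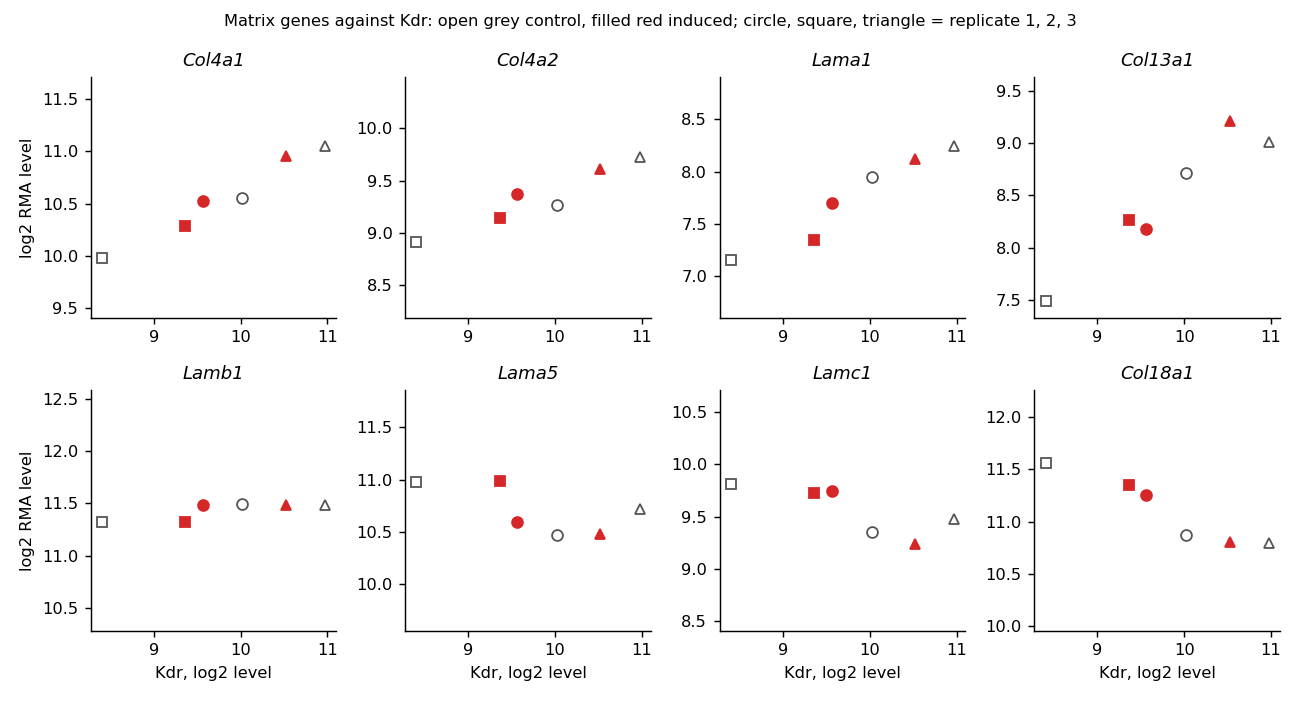
Log2 RMA level of 8 matrix genes (vertical axes, of equal span) against the Kdr level of the same array (horizontal axes); open grey symbols are controls, filled red symbols induced samples, and the shape gives the replicate number. Col4a1, Col4a2, Lama1 and Col13a1 climb from control 2, with Kdr at 8.40, to the arrays with the highest Kdr, Lamb1 is nearly flat and Col18a1 descends.

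Other laminin chains did not pass that test. Lamb1 had a slope of 0.07 ± 0.05 (SE), with a 95% interval from -0.04 to 0.19. Lamc1 had -0.20 ± 0.07 (adjusted p = 0.213) and Lama5 -0.16 ± 0.08 (0.455), both below 0, where Lama1 was above it. Of the fibrillar collagens, Col27a1 had 0.18 ± 0.05 (0.122) and Col5a1 0.15 ± 0.05 (0.168). The other type IV chains had slopes from 0.02 to 0.09, none of them past the threshold. Col14a1 narrowly missed it, with 0.22 ± 0.05 (0.0539).

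Fewer genes were called in several alternatives, and more in some others. Fits with the block have more terms and those with samples left out fewer arrays, so less is left to estimate error from. Calls lost or gained in them therefore do not decide a slope. Without control 2, the array with the lowest Kdr, the fit called 0 of the 52 genes and 20 of all genes (0.110%), with the smallest adjusted p among the 52 at 0.143. The slopes then were 0.68 for Col13a1, 0.53 for Col4a1, 0.49 for Lama1, 0.41 for Col4a2 and -0.33 for Col18a1, but 0.11 for Col1a2 against 0.24 with it. The slope of Col19a1 was 0.49 without control 2, 0.25 without both samples of number 2 and 0.96 without both of number 3, and that of Col1a2 was 0.11 without both of number 2. Without control 3 there were 4 calls, beside 0.841% of all genes, and without both samples of number 3 there were 2, beside 0.572%. With the replicate number as a block there were 4 calls of 52, beside 6.12% of all genes, a share near that background. Of the 4, 3 were among the 8: Col13a1, Col1a2, whose slope was then 0.39, and Col23a1, whose slope was then 0.47. Under that block the slopes of Col4a1 and Lama1 were both 0.26 (limma adjusted p = 0.148 and 0.145), Col4a2 had 0.17 (0.370) and Col18a1 -0.29 (0.159). Among the 19 members above the dim range 6 were called when only such genes were fitted, beside 6.82% of those genes.

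**Figure D4:**
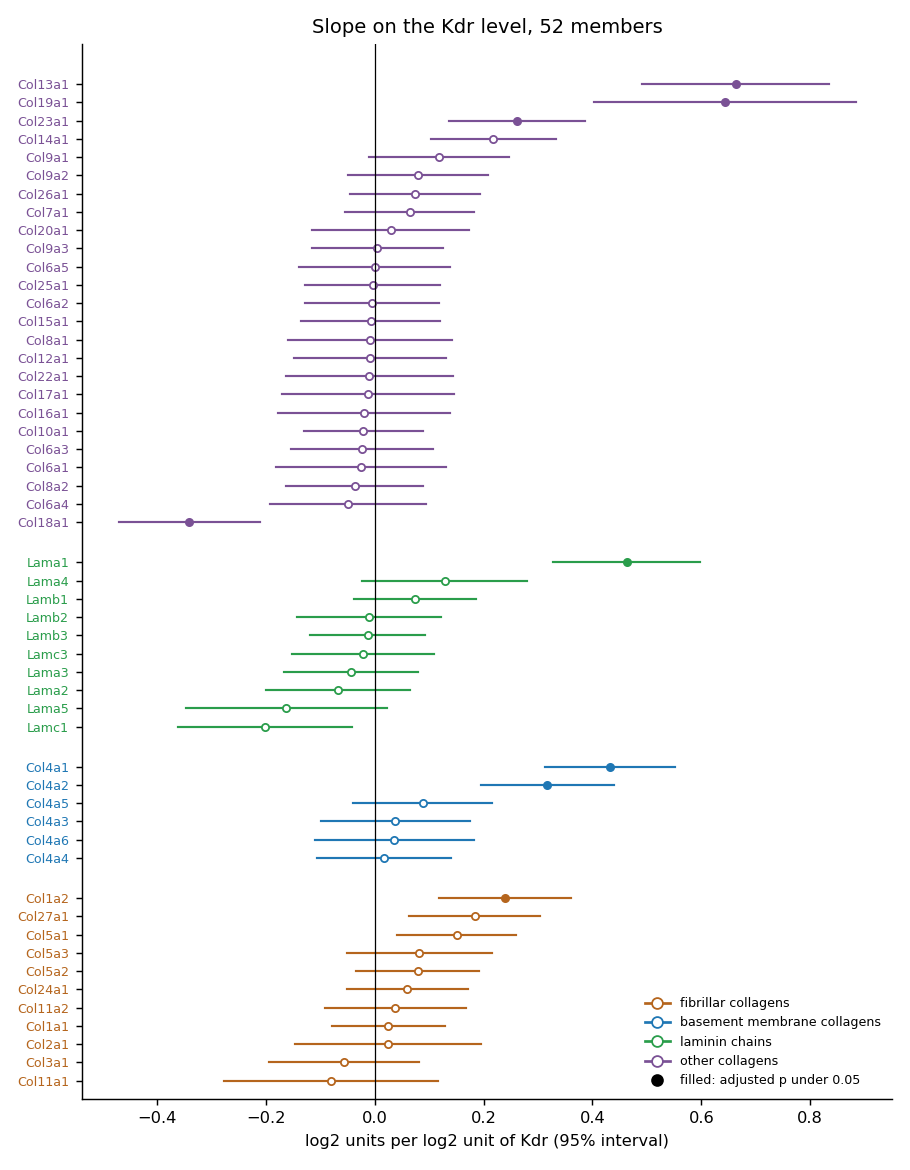
Slope on the Kdr level (horizontal axis, log2 units per log2 unit of Kdr) of the 52 genes by class, with points for the limma estimate, bars for the 95% interval and filled points for an adjusted p under 0.05. The 8 filled points are Col13a1, Col19a1, Col23a1, Lama1, Col4a1, Col4a2 and Col1a2 to the right of 0 and Col18a1 to the left.

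The same relation was computed as a correlation over the 6 samples for the 8 members with the highest mean level, as a family of 8. By an exact permutation test, two-sided, 4 passed: Col4a1 (Pearson r = 0.98, p = 0.0014, adjusted 0.0056), Col18a1 (r = -0.95, p = 0.0014, adjusted 0.0056), Col4a2 (r = 0.96, p = 0.0056, adjusted 0.0148) and Col27a1 (r = 0.90, p = 0.0139, adjusted 0.0278). The smallest p that 6 samples allow is 0.0014. Spearman's rho, by the same exact permutation test, was 1 for Col4a1 (p = 0.0028, adjusted 0.0111), -1 for Col18a1 (p = 0.0028, adjusted 0.0111), and 0.94 for both Col4a2 and Col27a1 (p = 0.0167, adjusted 0.0333). With controls 2 and 3 left out, whose Kdr lay farthest from its median, r was 0.95, -0.95, 0.84 and 0.78 for Col4a1, Col18a1, Col4a2 and Col27a1. Lamb1 (r = 0.79), Lamc1 (r = -0.78), Lama5 (r = -0.63) and Col6a2 (r = -0.06) did not pass, with exact permutation p-values of 0.0667, 0.0708, 0.189 and 0.903, adjusted to 0.0944, 0.0944, 0.216 and 0.903. As deviations from their group mean, samples that share a replicate number correlated at r = 0.16, 0.22 and 0.41. Some samples of unlike number correlated as much, such as control 2 and induced 1 (r = 0.30). No label states a pairing, so whether the 6 are fully independent is not known.

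Other probe sets of these genes did not always run the same way. A second Col18a1 probe set correlated with Kdr at r = -0.93, a second Col27a1 probe set at 0.95, the other Col23a1 probe sets at 0.98 and 0.84, and a second Col1a2 probe set at 0.87. The second Col4a1 probe set reached r = 0.77 and the second Lama5 probe set -0.69. Of the 4 Lamb1 probe sets 3 had r from 0.79 to 0.88 and the remaining one -0.75. The reported Col19a1 probe set had r = 0.86 and the others 0.78 and 0.08, the dimmest Col1a2 probe set had 0.46, and those of Col14a1 had 0.71, 0.63 and -0.65. These are descriptions over 6 arrays, and the probe sets of a gene were read from the same RNA on each array.

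Chains that assemble together were compared as 7 pairs. Col4a1 and Col4a2 moved together over the 6 samples with a Pearson r of 0.99, for which the exact permutation p was 0.0028 and 0.0194 after adjustment over the 7 pairs. Spearman's rho was 0.94, with an exact permutation p of 0.0167 that became 0.117 on adjustment and did not pass, and r was 0.97 without controls 2 and 3. The laminin pairs did not pass, with r = -0.84 for Lama1 and Lamc1, -0.71 for Lamb1 and Lamc1, and 0.79 for Lama5 and Lamc1 (exact permutation p = 0.0542, 0.124 and 0.0972, each adjusted to 0.173). Col1a1 and Col1a2 had r = 0.74, Col5a1 and Col5a2 0.55 and Col4a5 and Col4a6 -0.26 (exact permutation p = 0.107, 0.265 and 0.631, adjusted to 0.173, 0.309 and 0.631). Spearman's rho for the 6 pairs that did not pass ran from -0.77 to 0.77, with adjusted exact permutation p-values from 0.240 to 0.919. With the 2 arrays most distant in the first gene left out, the values were r = -0.66, -0.59 and 0.53 for the laminin pairs, 0.88 and 0.96 for the type I and type V pairs, and 0.74 for Col4a5 and Col4a6, whose sign turned.

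Col4a1 and Col4a2 lie head to head on chromosome 8, and their RefSeq starts (GRCm38.p6) are 21 bases apart on opposite strands. The stretch that holds both starts, chr8:11312805-11312826, is shown because the 2 genes moved together. It is given on the plus strand, with the GC-box letters GGGCGG in capitals:

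Col4a1 and Col4a2: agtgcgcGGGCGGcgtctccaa

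The 150 bases before the start are shown for the fibrillar gene that rose with Kdr and for the gene that fell with it, with the ETS core GGAA, or its complement TTCC, in capitals. The Col1a2 stretch is chr6:4505468-4505617 on the plus strand and the Col18a1 stretch, before the outermost of its 2 starts, is chr10:77166531-77166680 on the minus strand:

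Col1a2: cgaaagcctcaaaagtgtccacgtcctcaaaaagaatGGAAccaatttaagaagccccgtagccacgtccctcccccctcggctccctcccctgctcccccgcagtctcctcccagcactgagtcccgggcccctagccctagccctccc

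Col18a1: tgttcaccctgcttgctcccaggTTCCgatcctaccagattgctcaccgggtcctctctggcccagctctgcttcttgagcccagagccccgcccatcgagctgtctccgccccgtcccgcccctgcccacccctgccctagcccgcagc

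RefSeq promoter windows, from 250 bases before to 50 after a start, were found for 38 of the 52 genes, 42 windows in all. On either strand, the core GGAA was in 42 of the 42, beside 96.0% of all 32851 windows of this length. The Col1a2 window held 5 matches, and the windows of the outermost and the other Col18a1 start held 1 and 8, beside a mean of 3.52 over all windows. The longer ETS letters CCGGAA, which contain that core, were in 0 of the 42, beside 14.9% of all windows. The GC box GGGCGG was in 25 of the 42 (59.5%, beside 35.7%) and CCAAT in 14 (33.3%, beside 37.4%). A match is a description of letters, and a window without one says nothing of a factor.

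Genes that make, process, hold and cut the matrix were likewise not called between induced and control samples. Of the folding and modifying enzymes, 0 of 19 measured passed limma's adjusted threshold, with 6 positive and 13 negative and a median log2 fold change of -0.07. The prolyl hydroxylase gene P4ha2 averaged 8.27 ± 0.04 (SD, n = 3) without induction and 8.05 ± 0.11 with it, and its groups did not overlap, and P4ha1 had -0.28 ± 0.14 (SE). The chaperone genes Ppib and P4hb had -0.01 and -0.05. Of the processing and crosslinking genes 0 of 12 passed, with a median of 0.03, and Loxl4 and Tll1, for a lysyl oxidase and a procollagen protease, had 0.17 ± 0.12 and 0.20 ± 0.14 (SE). The peroxidase gene Pxdn, which crosslinks type IV collagen, had 0.01 ± 0.12. The procollagen protease gene Bmp1 had 0.05 ± 0.16.

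Basement membrane partners passed in 0 of 18, with a median of 0.07, and Sparc and Agrn, for a collagen-binding protein and a proteoglycan, had 0.00 ± 0.08 (SE) and 0.02 ± 0.07. Smoc2 had 0.17 ± 0.08, with all induced samples higher, and Frem1 0.17 ± 0.12. Collagen and laminin receptors passed in 0 of 12, with a median of 0.05. Among them the dystroglycan gene Dag1 had 0.04 ± 0.11, the integrin genes Itgb1 0.13 ± 0.10, Itga1 0.38 ± 0.20 and Itga3 0.19 ± 0.13. Matrix proteases and inhibitors passed in 0 of 18, with a median of 0.06, Adamts9 at 0.01 ± 0.11, Mmp14 at 0.07 ± 0.19, Mmp9 at 0.18 ± 0.08 and Mmp11 at 0.14 ± 0.08. The induced samples of Mmp9 and Mmp11 lay wholly above the controls, and Smoc2, Mmp9 and Mmp11 were dim. P4ha2, Smoc2, Mmp9 and Mmp11 were named for the smallest p of their lists, so their separation follows in part from that choice. Of all genes 2.88% lay wholly higher in induced samples and 3.91% wholly lower, and such genes were not counted over these lists.

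Some of these genes also followed Kdr in the fit over all genes, in which 1.77% of all genes rose and 2% fell. Among enzymes 2 of 19 rose, the collagen prolyl hydroxylase gene P3h2 with a slope of 0.64 ± 0.05 (SE) and the prolyl isomerase gene Fkbp14 with 0.39 ± 0.05. Among processing genes Pcolce2, a procollagen protease enhancer, had 0.41 ± 0.07, the procollagen protease gene Adamts3 0.31 ± 0.07 and the transglutaminase gene Tgm2 -0.26 ± 0.06. Of basement membrane partners, Ntn1 had 0.31 ± 0.05, Fbln2 0.37 ± 0.08 and Frem2 -0.55 ± 0.07. The laminin receptor chain gene Itga6 had -0.38 ± 0.05 and the membrane protease gene Mmp14 0.28 ± 0.06. All of these had a limma adjusted p under the threshold of 0.05 over all genes, the largest being 0.0451 for Fbln2. Calls for these lists and for the marker lists below are given over all 6 arrays only. Without control 2 the fit called 20 of all genes (0.110%).

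Markers of cell state moved with Kdr beside the matrix genes, and their counts stand beside 1.77% of all genes rising and 2% falling. Of the nascent mesoderm genes other than Kdr, 8 of 13 rose with it and 0 fell, with a median slope of 0.55. Their mean level, Kdr included, ran from 9.60 to 10.88 in controls and from 10.04 to 10.50 in induced samples. Of the pluripotency genes 5 of 12 fell with Kdr and 0 rose, with a mean level from 10.38 to 11.02 in controls and from 10.59 to 10.78 in induced samples. Of the parietal endoderm list, a cell type that secretes much laminin and type IV collagen, 4 of 13 rose with Kdr: Gata4 (slope 1.17 ± 0.06, SE), Pth1r (0.84 ± 0.05), Gata6 (0.64 ± 0.09) and Snai1 (0.53 ± 0.07), of which Snai1 is also on the mesoderm list. Its mean ran from 8.69 to 9.37 in controls and from 8.91 to 9.20 in induced samples, 9 of its 13 genes lay above the dim range, and its gene Sox7 was dim, at 5.97 to 6.51. The part of these cell states in the matrix slopes was not tested.

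Other cell types were covered by further lists, whose counts again stand beside 1.77% of all genes rising and 2% falling. Visceral endoderm genes followed Kdr in 0 of 12, with means from 7.51 to 7.54 in controls and 7.53 to 7.67 in induced samples and 4 genes above the dim range. Endothelial genes followed it in 1 of 14, Plvap, which fell, with means from 6.69 to 6.83 and 6.79 to 6.98 and 2 genes above the dim range. Fibroblast and mural genes followed it in 4 of 13, Pdgfra and Rgs5 upwards and Dcn and Thy1 downwards, with means from 7.87 to 8.15 and 7.96 to 8.14 and 6 genes above the dim range. Between induced and control samples the 6 marker lists had 0 genes past limma's adjusted threshold, though some groups did not overlap.

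Among those marker genes Tagln, a smooth muscle gene, had a log2 fold change of 0.30 ± 0.08 (SE), Ecscr, an endothelial gene in the dim range, 0.36 ± 0.10, the keratin gene Krt19 0.24 ± 0.07 and the visceral endoderm gene Cubn, dim, 0.24 ± 0.09. All induced samples were above the controls in these 4, with unadjusted p-values by limma of 0.0053, 0.0087, 0.0113 and 0.0343 and an adjusted p of 0.9995 for Tagln. Rhox5 had -0.18 ± 0.09, with all induced samples lower. Ecscr, Krt19 and Cubn were named for the smallest p of their lists, so their separation follows in part from that choice. Of all genes 2.88% lay wholly higher in induced samples and 3.91% wholly lower, and such genes were not counted over the marker lists. Groups overlapped for Robo4 (0.14 ± 0.08), Egfl7 (-0.01 ± 0.10) and Esam (0.07 ± 0.11) of endothelium, and for Ttr (0.07 ± 0.12), Fst (-0.01 ± 0.07), Krt8 (0.11 ± 0.10) and Snai1 (-0.50 ± 0.33) of the endoderm lists. They also overlapped for Pdgfra (-0.32 ± 0.50) and Des (0.13 ± 0.11), for the mesoderm genes Eomes (-0.10 ± 0.10), Mixl1 (0.01 ± 0.14) and Mesp2 (-0.45 ± 0.34), and for the pluripotency genes Tdgf1 (0.02 ± 0.09), Pou5f1 (0.23 ± 0.18) and Esrrb (0.11 ± 0.13). The part of these markers in the matrix differences was not tested.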

How the data were processed

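RNA of 6 samples was measured on Affymetrix mouse arrays, per the labels. The deposited log2 value of each probe set comes from RMA, which the submitters' processing notes name, with its version not given in the sources used here. Of 45101 probe sets, 34945 had 1 symbol in the platform annotation after 13 controls were removed, giving 18193 genes. Of these probe sets, 34741 were matched to RefSeq by Entrez identifier, and 0 symbols changed. Depth does not apply to arrays; their number, 3 per group, limits the precision.

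Groups were compared with limma 3.58.1 (lmFit and eBayes in R 4.3.3). Tests were two-sided, p-values were adjusted by Benjamini-Hochberg across all genes and the threshold was 0.05. In simulated data the fits recovered the mean size of known changes. That check set no requirement on how many were called, and for the Kdr slopes it used a smaller spread than the data have. Every fold change is induced minus control. The groups carry the same replicate numbers. Same-numbered samples, as deviations from their group mean, correlated at r = 0.16, 0.22 and 0.41 for numbers 1, 2 and 3, all over 0.1, so the numbers were treated as pairs in an alternative fit with the replicate block. That pairing rests on the data and the numbers, and no label states it; control 2 correlated more with induced 1 (r = 0.30) and control 1 with induced 3 (r = 0.24) than with their own numbers.

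Members, lists and tests were chosen with earlier results of these data known. Per-sample values are given for the 6 members with the smallest p, the 6 largest rises, the 6 largest falls and the 4 highest levels of each class; slopes come from the Kdr fit, which was added later. From the other lists the 2 genes with the highest level and the 2 with the smallest p were chosen, and those that follow Kdr, named after their values were seen. Alternatives were the block, samples left out, the most variable probe set, renormalization, median centring, a filter on dim genes and array weights.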

Additional observations from a re-analysis of the deposited data

How the results depend on the processing

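No matrix gene was called between induced and control samples in any setting run, the replicate block included, which changed no call in that comparison. The members whose groups did not overlap numbered 3, and 4 to 14 with samples left out. The highest, 14 of 52 without both samples of number 2, is 26.9%, beside 32.8% of all genes, and the lowest, without induced 3, is 7.69%, beside 16.8%. Among the 19 members above the dim range the number over all 6 arrays was 0, beside 6.79% of all genes, dim ones included. The median of the laminin chains ran from -0.025 to 0.11 with samples left out. The genes called for Kdr numbered 4 with the replicate block and 0 to 10 with samples left out, and 0 without control 2. In every setting run the 8 slopes kept their sign. Of the correlations with Kdr, 0 passed with the 2 farthest samples left out and 0 as deviations from the group means. Of the partner chains 0 passed in either case. The smallest possible exact permutation p is 0.0417 and 0.0278, and after adjustment a relation at that limit passes only if most of its family stand there too. Kdr and Col4a1 stood at both limits, with the exact permutation p adjusted to 0.222 and 0.111. These counts thus cannot decide whether the relations held.

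Signs of small differences turned. With the most variable probe set Col26a1 had 0.078 and Col4a3 -0.063, Kdr and Col6a2 correlated at r = 0.21, and Col1a1 and Col1a2 at -0.37. Col4a5 and Col4a6 reached 0.74 without the 2 farthest samples. With array weights Col2a1 had -0.014, Col4a3 -0.0044, Col6a2 -0.045, Col7a1 -0.027, Lama1 0.061 and Lamb1 0.022. Centring on the median gave Col6a2 -0.014 and Col7a1 -0.011, and renewed quantile normalization gave Lama5 0.012 and Lamb1 0.037. With samples left out the ranges were -0.20 to 0.095 for Col11a1, -0.099 to 0.30 for Col18a1, -0.061 to 0.70 for Col19a1, -0.25 to 0.082 for Col1a2, -0.17 to 0.060 for Col27a1, -0.073 to 0.15 for Col2a1, -0.21 to 0.32 for Col4a1, -0.13 to 0.28 for Col4a2, -0.069 to 0.15 for Col4a3 and -0.052 to 0.14 for Col4a6. They were -0.18 to 0.014 for Col5a1, -0.13 to 0.049 for Col5a3, -0.081 to 0.061 for Col6a2, -0.095 to 0.066 for Col7a1, -0.37 to 0.17 for Lama1, -0.19 to 0.092 for Lama5, -0.061 to 0.049 for Lamb1 and -0.16 to 0.19 for Lamc1. The cause of these turns was not tested. Signal over background limits 33 of the 52 members, which were dim.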
